A study of Mus musculus with 10 samples.

Results

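Skeletal muscle contractile genes were measured in mammary tissue by RNA-seq, as 39 genes listed by symbol for fast fibres (14 genes), slow fibres (8 genes) and both fibre types or neither in particular. All 39 symbols were found among the 46983 Ensembl genes counted, and 33 of the 39 passed the filter on low counts and were tested. The tissue was the right thoracic mammary fat pad of virgin female C57BL/6 mice on postnatal day (PND) 130, taken after a 6 h fast, and each library came from 1 mouse. Mice had been fed a control diet with 1 mg folic acid (FA)/kg (CFA, n = 5) or a high FA diet with 5 mg FA/kg (HFA, n = 5) as adults, and both groups then ate the same AIN93M maintenance diet until collection. The labels name no transgene or deletion for either group. The libraries are called CFA1 to CFA5 (titles T1224, T1234, T1314, T1324 and T1334) and HFA1 to HFA5 (titles T2214, T2224, T2234, T2314 and T2334). The second digit of the title is 2 for CFA1, CFA2 and HFA1 to HFA3 and 3 for the others, and its meaning is not given in the sources used here. Since the mice were separate animals, p-values of the diet comparisons measure the spread between mice. The labels do not give the cage, so spread between cages was not separated from it.

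Skeletal muscle moves by the sliding of thick myosin filaments along thin actin filaments, and calcium released from the sarcoplasmic reticulum starts each contraction by binding to troponin on the thin filament. Most proteins of this machinery exist as paralogs or isoforms that differ between fast glycolytic fibres and slow oxidative fibres, so that the set of isoforms in a sample is commonly read as its fibre composition. Mammary epithelium and fat do not build sarcomeres, and the thoracic mammary fat pad lies over the muscles of the chest wall.

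The libraries held between 7672199 (HFA3) and 14829291 (CFA3) reads counted on genes. The muscle genes took 1.71% (CFA2) to 8.20% (CFA5) of the counted reads in CFA libraries and 7.97% (HFA3) to 9.82% (HFA2) in HFA1 to HFA4, against 0.209% in HFA5, where they held 29972 of 14336914 reads (95% Wilson interval, 0.207% to 0.211%, which covers counting error only). HFA5 therefore stood apart from the other 9 libraries for nearly every gene described here, and CFA2 was the next lowest. Both libraries also carried lymphoid RNA. The summed levels (CPM, reads scaled to the library total and corrected by TMM factors) of 6 B cell markers, led by *Ms4a1*, *Cd79a* and *Cd79b*, were 2375 in HFA5, 799.8 in CFA5 and 302 in CFA2 and lay between 3.25 and 4.67 in the other 7 libraries. In whole tissue, fewer cells of a type and less RNA per cell cannot be told apart.

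The promoters of 3 of these genes are shown because they belong to the most abundant sarcomeric actin, to the leading fast myosin and to the slow myosin that was almost absent. The windows run from 250 bases before to 50 bases after the RefSeq start (GRCm38.p6) and are written 5′ to 3′ along the gene, with motif matches in capitals. Matches were searched for CAGCTG, an E-box form bound by myogenic regulators (its own reverse complement), for CATTCC on both strands (the MCAT element, read as GGAATG on the other strand), for TATAAA on the sense strand, and for the MEF2 motif and the CArG box of serum response factor. TATAAA can overlap the MEF2 motif.
Acta1 (chr8:123894726-123895025, minus strand): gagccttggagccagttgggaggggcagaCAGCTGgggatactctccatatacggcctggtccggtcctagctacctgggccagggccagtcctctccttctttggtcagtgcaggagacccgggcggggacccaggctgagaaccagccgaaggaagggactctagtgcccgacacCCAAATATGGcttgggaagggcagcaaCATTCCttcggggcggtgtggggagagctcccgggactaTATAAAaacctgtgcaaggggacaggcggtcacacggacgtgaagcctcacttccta
Myh4 (chr11:67237562-67237861, plus strand): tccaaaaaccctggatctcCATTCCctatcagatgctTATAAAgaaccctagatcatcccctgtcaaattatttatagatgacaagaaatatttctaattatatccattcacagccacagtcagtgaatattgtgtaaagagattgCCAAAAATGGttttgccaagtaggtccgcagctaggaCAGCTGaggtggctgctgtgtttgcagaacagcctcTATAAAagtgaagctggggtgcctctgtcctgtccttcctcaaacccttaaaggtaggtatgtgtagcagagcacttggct
Myh7 (chr14:54994577-54994876, minus strand): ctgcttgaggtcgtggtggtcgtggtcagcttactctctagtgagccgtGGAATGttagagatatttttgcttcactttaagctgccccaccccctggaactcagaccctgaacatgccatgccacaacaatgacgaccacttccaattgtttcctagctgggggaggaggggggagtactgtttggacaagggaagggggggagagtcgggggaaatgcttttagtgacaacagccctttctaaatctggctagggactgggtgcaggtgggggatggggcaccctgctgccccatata
The *Acta1* window held the E-box form, the MCAT element, TATAAA and a CArG box. The *Myh4* window held the same 4 motifs, with TATAAA at a pair of places. The *Myh7* window held a single match, GGAATG. The windows of *Ckm* and of the slow gene *Tnni1*, not shown, each held a single match as well, CAGCTG. Promoter windows were given for 33 of the 39 genes. CAGCTG was present in 17 of the 33 (51.5%) and in 16.1% of all 27025 promoter windows of this length. CATTCC was present in 13 of the 33 (39.4%) against 14.6% of all windows, and TATAAA in 5 (15.2%) against 8.88%. The CArG box was found in 4 (12.1%) against 1.57%, and the MEF2 motif in 2 (6.06%) against 0.566%. Among fast genes 5 of 10 windows held CAGCTG, and among slow genes 3 of 8 did. These matches are descriptions of letters in a window and were not tested as sites.

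Across the 10 libraries the muscle genes varied nearly as one. The summed level of the 39 genes was 36982, 14450.2, 42421, 68106 and 83891 CPM in CFA1 to CFA5 and 94036, 103406, 86732, 112944 and 1908 CPM in HFA1 to HFA5. HFA5 lay 44.0-fold below the median of the other 9 libraries. HFA5 was the lowest library for 31 of the 33 tested muscle genes, against 28.3% of all 15610 tested genes, and CFA2 was the second lowest for 31. HFA4 was the highest library for 22, HFA2 for 8, HFA3 for 2 and HFA5 for 1. The map of levels by gene and library shows this as columns that are light or dark from the top row down to the slow genes.

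**Figure D1:**
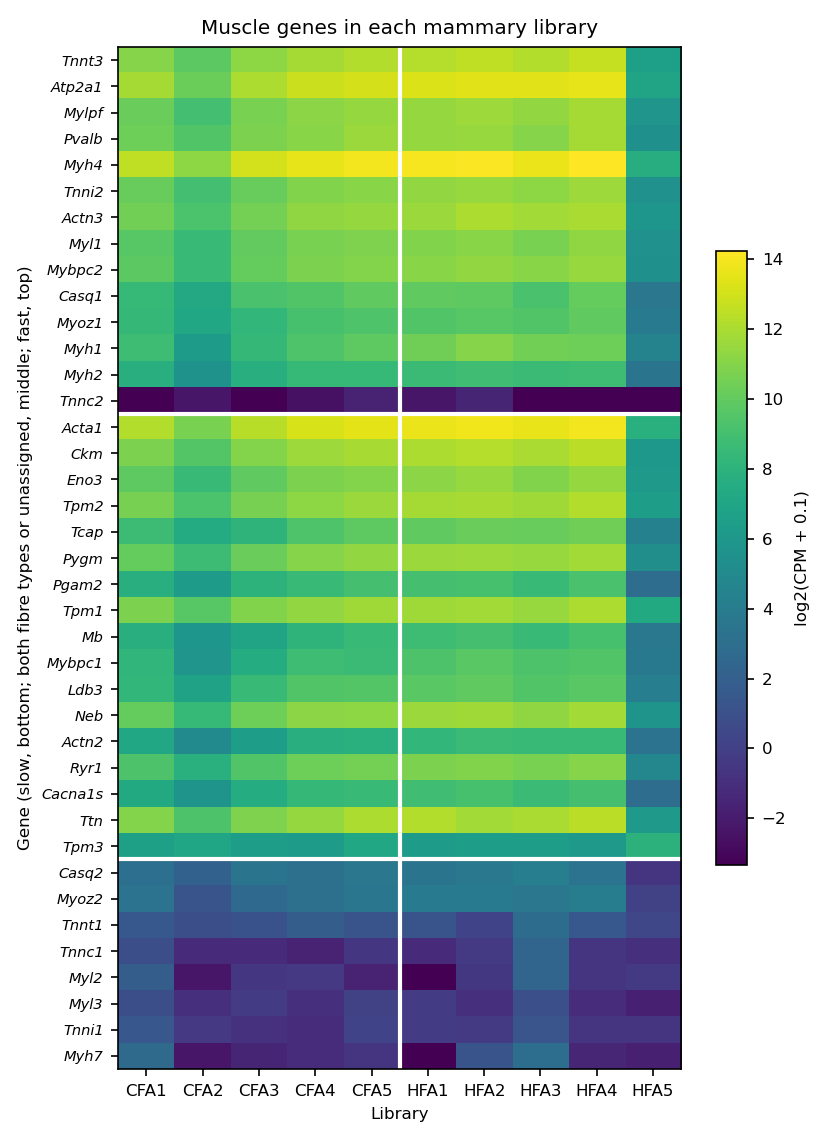
Level of each of the 39 muscle genes (rows; fast genes on top, genes of both fibre types or unassigned in the middle, slow genes at the bottom) in each library (columns), as log2(CPM + 0.1) by colour. HFA5 is the darkest column for all fast genes except Tnnc2, while Tpm3 is brightest in HFA5 and 6 slow genes stay below 8 CPM, with CFA1 and HFA3 the lightest for 5 of them.

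The thin filament was represented first by *Acta1*, the skeletal muscle alpha actin (chr8:123891769-123894751, minus strand, GRCm38). *Acta1* was measured at 4686, 1621, 5222, 9260.0 and 11368 CPM in CFA1 to CFA5 and 13478, 14555, 12711, 15092 and 223.9 CPM in HFA1 to HFA5. The 4 libraries HFA1 to HFA4 lay above all 5 CFA libraries, and HFA5 lay below all of them, so the diet groups overlapped. The group values were 6431 ± 3874 CPM for CFA and 11212 ± 6212 CPM for HFA (SD, n = 5 each). Per kilobase of exon, *Acta1* was the most abundant of the 39 genes, at 5743 ± 3576 CPM per kilobase (mean ± SD over 10 libraries).

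*Neb*, which encodes the giant thin filament ruler nebulin, ranged from 348 CPM (CFA2) to 3582 CPM (HFA4) in the 9 libraries other than HFA5 and was at 53.2 CPM in HFA5. Tropomyosins lie along the actin filament and cover its myosin binding sites. *Tpm1* was measured at 1757, 809, 1904, 2626 and 3344 CPM in CFA1 to CFA5 and 3375, 3569, 2863, 4340.1 and 158 CPM in HFA1 to HFA5. *Tpm2* was measured at 1555, 597, 1537, 2453 and 3083 CPM in CFA1 to CFA5 and 3627, 3956, 3313, 4602 and 85.1 CPM in HFA1 to HFA5. Both followed *Acta1*, with HFA5 lowest and HFA4 highest, although HFA5 lay 18.1-fold below the median of the other 9 libraries for *Tpm1* and 50.8-fold for *Acta1*. *Tpm1* is also made by smooth muscle, whose 11 marker genes (shared with myoepithelium) summed to 331 CPM in HFA5 and to 781 (CFA5) to 2789 (CFA1) CPM elsewhere. *Tpm3*, whose products include the slow muscle tropomyosin and a form made by most other cells, went the other way. It was measured at 97.9, 124, 89.6, 83.9 and 144 CPM in CFA1 to CFA5 and 83.1, 91.8, 87.6, 71.0 and 249 CPM in HFA1 to HFA5. HFA5 was highest, followed by CFA5 and CFA2, which are the 3 libraries with the B cell markers, whose part in this order was not tested.

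Troponin is the calcium switch of the thin filament, with a tropomyosin-binding subunit (T), an inhibitory subunit (I) and a calcium-binding subunit (C). Fast troponin T, *Tnnt3*, was measured at 2087, 872, 2425, 3689 and 4658 CPM in CFA1 to CFA5 and 4825, 5836, 4748, 6527 and 96.6 CPM in HFA1 to HFA5. Fast troponin I, *Tnni2*, was measured at 1109.8, 502, 1103, 1879.7 and 2236 CPM in CFA1 to CFA5 and 2665, 2849, 2417, 3145 and 47.1 CPM in HFA1 to HFA5. In both genes HFA1 to HFA4 lay above every CFA library and HFA5 below. Their slow counterparts were at the bottom of the range. *Tnnt1* was measured at 2.68, 1.76, 2.08, 3.47 and 2.24 CPM in CFA1 to CFA5 and 2.21, 1.04, 7.10, 2.74 and 1.21 CPM in HFA1 to HFA5, from 12 to 50 reads per library. *Tnni1* was measured at 2.61, 0.658, 0.455, 0.361 and 1.04 CPM in CFA1 to CFA5 and 0.775, 0.69, 2.41, 0.549 and 0.509 CPM in HFA1 to HFA5, from 5 to 38 reads. Neither followed its fast paralog, and HFA3 was highest for *Tnnt1* and CFA1 and HFA3 for *Tnni1*.

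Fast troponin C could not be read in these counts. *Tnnc2* (chr2:164777161-164779967, minus strand) had 0 reads in CFA1, CFA3, HFA3, HFA4 and HFA5, 1 read in CFA2, CFA4 and HFA1 and 3 reads in CFA5 and HFA2, although fast troponin I was at 502 CPM or more in 9 libraries. A count of 0 allows up to 3 reads, which is 0.191 CPM in HFA5 and 0.426 CPM in HFA3. Of the 800 exon bases of *Tnnc2*, 592 (74%) lie inside exons of *Ube2c*, a ubiquitin-conjugating enzyme gene on the opposite strand. Reads from a gene and its antisense partner cannot be told apart without strand, and the counting left out reads that fell on more than 1 gene. *Ube2c* itself was counted at 1.92 to 9.88 CPM. Slow and cardiac troponin C, *Tnnc1*, was measured at 1.72, 0.329, 0.325, 0.217 and 0.597 CPM in CFA1 to CFA5 and 0.332, 0.69, 5.11, 0.549 and 0.446 CPM in HFA1 to HFA5, with HFA3 and CFA1 highest.

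The thick filament was dominated by *Myh4*, the type IIB myosin heavy chain of the fastest fibres. *Myh4* was measured at 6029, 2393, 8124, 11848 and 14989.6 CPM in CFA1 to CFA5 and 16284, 17332, 13226, 18999.8 and 192 CPM in HFA1 to HFA5. HFA5 and CFA2 were lowest and HFA3 fell below CFA5. Type IIX myosin, *Myh1*, was measured at 439, 77.6, 333, 679.6 and 917 CPM in CFA1 to CFA5 and 1383, 2085, 1395, 1321 and 23.4 CPM in HFA1 to HFA5. Type IIA myosin, *Myh2*, was measured at 210.3, 52.0, 204, 345 and 343 CPM in CFA1 to CFA5 and 393, 452, 388, 429 and 10.6 CPM in HFA1 to HFA5. HFA1 to HFA4 lay above all CFA libraries for *Myh1* and *Myh2*. These 3 genes lie side by side on the plus strand of chromosome 11, *Myh2* at chr11:67171027-67197517, *Myh1* at chr11:67200052-67224575 and *Myh4* at chr11:67238029-67260446. They are close in sequence, and reads with more than 1 alignment (28.8% to 33.9% per library) were not counted, so their levels relative to each other are uncertain. Slow myosin, *Myh7* (chr14:54970684-54994626, minus strand), was measured at 6.66, 0.11, 0.26, 0.361 and 0.522 CPM in CFA1 to CFA5 and 0, 2.24, 7.80, 0.274 and 0.191 CPM in HFA1 to HFA5. Only CFA1 (97 reads), HFA3 (55 reads) and HFA2 (26 reads) had more than 7 reads, and HFA1 had 0 of 163123 adult myosin reads, which allows a share of up to 0.00184%.

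Myosin light chains stabilise the myosin neck and tune its force. The fast regulatory light chain *Mylpf* was measured at 1169, 512, 1659, 2343 and 2734 CPM in CFA1 to CFA5 and 2839, 3217, 2696, 3744 and 56.4 CPM in HFA1 to HFA5. The fast essential light chain *Myl1* was measured at 801, 382, 1019.8, 1653 and 1830.3 CPM in CFA1 to CFA5 and 1902, 2172, 1609.7, 2535 and 46.8 CPM in HFA1 to HFA5. In both, HFA3 lay within the CFA range, and HFA1, HFA2 and HFA4 lay above it. The slow and ventricular light chain *Myl2* was measured at 3.57, 0.11, 0.585, 0.65 and 0.224 CPM in CFA1 to CFA5 and 0, 0.604, 5.11, 0.549 and 0.7 CPM in HFA1 to HFA5. CFA1 and HFA3 stood above the other 8 libraries, which did not exceed 0.70 CPM. *Myl3*, the slow essential chain, had 1.72 CPM in CFA1 and 1.84 CPM in HFA3 and between 0.191 and 0.970 CPM in the others.

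Myosin-binding protein C binds to the thick filament. The fast form *Mybpc2* was measured at 870.3, 358, 1083, 1745 and 1962 CPM in CFA1 to CFA5 and 2142, 2681, 2181, 2941 and 44.4 CPM in HFA1 to HFA5. *Mybpc1*, named for slow fibres but made in fast fibres too, was measured at 294, 55.5, 183, 440.1 and 405 CPM in CFA1 to CFA5 and 629, 847, 652, 692 and 13.7 CPM in HFA1 to HFA5. Both had HFA5 lowest and CFA2 next, and HFA1 to HFA4 above all CFA libraries. Titin, *Ttn*, the elastic spring that runs from the Z disc to the middle of the sarcomere, was measured at 1955, 649, 1772, 2732 and 4182 CPM in CFA1 to CFA5 and 4704, 3593, 4038, 5338 and 73.1 CPM in HFA1 to HFA5. CFA5 lay above HFA2 and HFA3 for *Ttn*, so that HFA1 to HFA4 were not all above CFA.

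At the Z disc, where thin filaments are anchored, *Actn3* (the fast fibre alpha actinin) was measured at 1457, 612, 1518, 2498 and 2824 CPM in CFA1 to CFA5 and 3020.4, 4175, 3565, 4085 and 60.4 CPM in HFA1 to HFA5. *Actn2*, the alpha actinin of all fibres and of heart, ranged from 31.3 CPM (CFA2) to 403 CPM (HFA2) without HFA5 and was at 10.4 CPM in HFA5. *Tcap*, the titin cap telethonin, was measured at 419, 179, 273, 682 and 914 CPM in CFA1 to CFA5 and 973, 1184, 1126, 1359 and 20.4 CPM in HFA1 to HFA5. HFA1 to HFA4 lay above all CFA libraries for these 3 genes. *Ldb3*, a Z disc scaffold, was measured at 318, 108, 376, 694 and 743 CPM in CFA1 to CFA5 and 843, 966, 709, 866 and 18.3 CPM in HFA1 to HFA5, and HFA3 lay below CFA5. The calsarcins tether calcineurin to the Z disc. *Myoz1*, the fast form, was measured at 325, 143, 306, 555 and 673 CPM in CFA1 to CFA5 and 705, 822, 715, 979 and 14 CPM in HFA1 to HFA5. *Myoz2*, the slow and cardiac form, was measured at 10, 2.30, 6.18, 8.89 and 11.7 CPM in CFA1 to CFA5 and 14.1, 15.8, 12.3, 17.5 and 1.02 CPM in HFA1 to HFA5. The calsarcins shared the order of the fast genes, with HFA5 lowest, CFA2 next and HFA4 highest in both.

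The calcium cycle of the fibre runs from the voltage sensor in the membrane to the release channel and back through the pump. *Cacna1s*, the voltage sensor, was measured at 159, 54.3, 188, 324.3 and 369.5 CPM in CFA1 to CFA5 and 462, 554, 406, 521 and 7.77 CPM in HFA1 to HFA5. *Ryr1*, the release channel, was measured at 633, 220.1, 716, 1296 and 1510.0 CPM in CFA1 to CFA5 and 1754, 1901, 1666, 2089 and 27.9 CPM in HFA1 to HFA5. Both had the 5 CFA libraries in the same order and HFA1 to HFA4 above them. *Atp2a1*, the fast calcium pump SERCA1, was measured at 3611, 1266, 4193, 7045 and 8643 CPM in CFA1 to CFA5 and 10172, 10953, 10862, 11883 and 120.0 CPM in HFA1 to HFA5. HFA5 lay 72.0-fold below the median of the other 9 libraries for *Atp2a1*, and this distance was the largest among the genes with a read in HFA5. *Pvalb*, the calcium buffer parvalbumin of fast fibres, was measured at 1300.1, 685, 1707, 2242 and 3086 CPM in CFA1 to CFA5 and 2836, 2909, 2132, 3607 and 43.7 CPM in HFA1 to HFA5. HFA4 was highest and CFA5 lay above HFA1, HFA2 and HFA3. Exons on the opposite strand overlap 21.9% of the exon bases of *Atp2a1*, 20.0% of *Cacna1s* and 15.5% of *Ckm*, so their counts may be too low.

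Calsequestrin stores calcium in the reticulum. The fast form *Casq1* was measured at 339, 155, 572, 689 and 985 CPM in CFA1 to CFA5 and 984, 941, 588, 1089 and 12.48 CPM in HFA1 to HFA5. The slow and cardiac form *Casq2* was measured at 8.38, 4.28, 10.8, 8.74 and 12.4 CPM in CFA1 to CFA5 and 10.7, 13.1, 17.6, 10.3 and 0.509 CPM in HFA1 to HFA5. Both were lowest in HFA5 and CFA2, but *Casq2* was highest in HFA3, where *Casq1* was only the sixth highest.

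Fast fibres draw on creatine phosphate and glycogen. *Ckm*, muscle creatine kinase, was measured at 1718, 719, 1997, 3235 and 3863 CPM in CFA1 to CFA5 and 4346, 4821, 4082, 5276 and 66.1 CPM in HFA1 to HFA5. *Pygm*, muscle glycogen phosphorylase, was measured at 1069.6, 406, 1165, 2139 and 2599 CPM in CFA1 to CFA5 and 3011, 3161, 2922, 3503 and 39.8 CPM in HFA1 to HFA5. HFA1 to HFA4 exceeded all CFA libraries in both. *Eno3*, muscle enolase, was measured at 911, 371, 956, 1749 and 1964 CPM in CFA1 to CFA5 and 2304, 2953, 1937, 2800.1 and 68.2 CPM in HFA1 to HFA5. *Pgam2*, muscle phosphoglycerate mutase, was measured at 201, 77.9, 264, 373 and 527 CPM in CFA1 to CFA5 and 519, 542, 358, 574 and 7.57 CPM in HFA1 to HFA5. In *Eno3* and *Pgam2*, HFA3 lay within the CFA range, as did HFA1 for *Pgam2*. *Mb*, the oxygen store myoglobin of oxidative fibres, was measured at 204, 58.6, 124, 265 and 372 CPM in CFA1 to CFA5 and 431, 526, 374, 558 and 12.7 CPM in HFA1 to HFA5, and HFA1 to HFA4 were above all CFA libraries.

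Compared per kilobase of exon, the most abundant genes after *Acta1* were *Tnnt3* (2259 ± 1347), *Atp2a1* (1977 ± 1237), *Mylpf* (1974 ± 1135), *Pvalb* (1974 ± 1084) and *Myh4* (1819 ± 1076 CPM per kilobase, mean ± SD over 10 libraries). These 5 means lay closer together than their SDs, but the SDs mostly hold spread between libraries that the genes shared. They therefore do not show how certain the order is, which was not tested. The slow genes were at 0.214 (*Myh7*), 0.280 (*Tnni1*), 0.389 (*Myl3*), 0.621 (*Myl2*), 0.990 (*Tnnc1*), 1.20 (*Tnnt1*), 2.92 (*Myoz2*) and 3.54 (*Casq2*) CPM per kilobase. All 8 slow genes lay below all fast genes other than *Tnnc2*, of which *Myh2* was the lowest at 39.6 ± 21.9 CPM per kilobase.

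Most of the spread between libraries was shared. Expressed as a log2 ratio to *Acta1* (log2 CPM, prior count 2), 27 of the 32 other tested muscle genes had an SD below 0.5 over 10 libraries, and 29 of 32 over the 9 libraries without HFA5. The median SD was 0.25 for the ratios against 1.85 for log2 CPM over 10 libraries, and 0.22 against 0.95 over 9. The steadiest ratios were those of *Ryr1* (SD 0.048 over 10 libraries), *Cacna1s* (SD 0.073) and *Neb* (SD 0.11). In the 10 libraries the ratio varied more than 0.5 for *Tpm1* (SD 0.51), *Casq2* (SD 0.75), *Myoz2* (SD 0.76), *Tnnt1* (SD 1.73) and *Tpm3* (SD 2.39). The ratios share *Acta1* as denominator and were computed after the values had been seen.

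Genes outside the list with the same pattern were ranked by the Pearson correlation of their log2 CPM with the mean of the tested muscle genes over the 10 libraries, which share depth and scaling with them, so that no p is given. Of 13886 genes ranked, 383 had r above 0.95. The 10 most alike were *Tmem38a* (r = 0.9998), *Clcn1* (r = 0.9992), *Sgca* (r = 0.9990), *Cap2*, *Trim54*, *Klhl41*, *Cdh15*, *Asb16*, *Myom1* and *Mlip* (r = 0.998 to 0.999). *Tmem38a*, a cation channel of the reticulum, was measured at 218.9, 86.3, 232, 386 and 477 CPM in CFA1 to CFA5 and 517, 580.1, 486, 629 and 13.0 CPM in HFA1 to HFA5. Without HFA5 these 10 genes kept r between 0.994 and 0.999.

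The slow genes did not share one pattern. *Myoz2* followed its fast paralog over the libraries. *Casq2* was lowest in HFA5 and next in CFA2, as the fast genes were, but was highest in HFA3. The summed level of the other 6 (*Myh7*, *Myl2*, *Myl3*, *Tnnt1*, *Tnnc1* and *Tnni1*) was 19.0 CPM in CFA1 and 29.4 CPM in HFA3 and between 3.25 and 5.69 CPM in the other 8 libraries, while the 14 fast genes summed to 19747 CPM in CFA1 and 46523 CPM in HFA3, neither of them the highest. CFA1 and HFA3 were the 2 highest libraries for 5 of the 6 genes, and *Tnnt1* was highest in HFA3, with CFA4 next. The heart shares several of these genes. The heart markers *Nppa* and *Nppb* had 0 reads in every library, and the 9 cardiac genes listed (mainly *Hcn4*, *Tnni3* and *Tnnt2*) summed to 4.23 (CFA3) to 11.3 (HFA2) CPM, with CFA1 at 6.59 and HFA3 at 8.51.

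**Figure D2:**
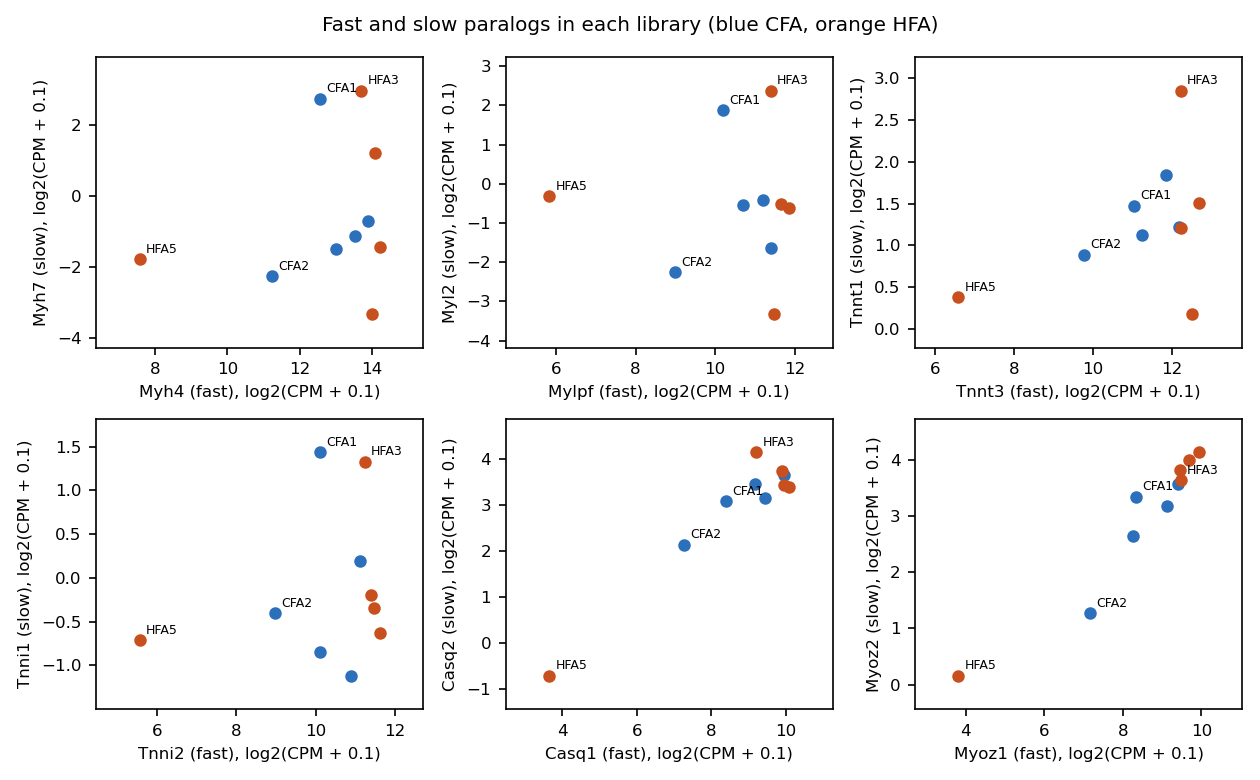
Fast gene (horizontal axis) against its slow paralog (vertical axis) in each library for 6 pairs, both as log2(CPM + 0.1), with CFA in blue and HFA in orange. Myoz1 and Myoz2 rise together, Casq1 and Casq2 are both lowest in HFA5 and CFA2 with r of 0.263 among the other 8 libraries, and Myh7, Myl2 and Tnni1 are highest in CFA1 and HFA3 whatever the level of the fast gene.

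Fast and slow paralogs were compared over the 10 libraries in 8 pairs, by correlation of log2 CPM with permutation tests (100000 resamples, two-sided) adjusted over the 8 pairs. In the pair of *Mybpc2* and *Mybpc1*, *Mybpc1* is named for slow fibres but is not among the slow genes listed here. *Mybpc2* and *Mybpc1* varied together (Pearson r = 0.978, p = 0.0002, adjusted p = 0.0008, and Spearman rho = 0.964, p = 2e-05, the smallest these permutations can give, adjusted p = 0.00016). *Myoz1* and *Myoz2* did as well (r = 0.959, p = 4e-05, adjusted p = 0.00032, and rho = 0.976, p = 6e-05, adjusted p = 0.00024). Without CFA2 and HFA5, the 2 libraries farthest from the median of the fast gene, r was 0.888 and 0.881. *Casq1* and *Casq2* gave r = 0.957 (p = 0.00622, adjusted p = 0.0166) and rho = 0.564 (p = 0.0994, adjusted p = 0.265), and r was 0.263 without CFA2 and HFA5, so this relation rests on those libraries. *Tnnc2* and *Tnnc1* stayed in the adjustment, but give no reading because *Tnnc2* had 0 to 3 reads a library. The other 4 pairs did not pass the test. Their r was 0.22 for *Myh4* and *Myh7* (p = 0.603, adjusted p = 0.699, rho = 0.20, p = 0.587), 0.0032 for *Mylpf* and *Myl2* (p = 0.883, adjusted p = 0.883, rho = -0.31, p = 0.385), 0.43 for *Tnnt3* and *Tnnt1* (p = 0.199, adjusted p = 0.398, rho = 0.27, p = 0.449) and 0.21 for *Tnni2* and *Tnni1* (p = 0.612, adjusted p = 0.699, rho = 0.27, p = 0.447). Without the 2 farthest libraries these 4 correlations ranged from -0.43 to -0.077. *Myh7* and *Myl2* had 0 reads in HFA1, so that their log2 CPM there is set by the prior count of 2.

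A difference between diets in the log2 ratio of fast to slow gene did not pass the test for any of the 7 pairs that could be read (two-sided exact permutation test of the difference of means, 5 against 5, where the smallest p possible is 0.00794). The p-values were adjusted over 8 pairs, with *Tnnc2* over *Tnnc1* among them, and *Mybpc1* stood as the slow gene of its pair by name only. The difference HFA minus CFA was -0.33 for *Myoz1* over *Myoz2* (CFA 5.64 ± 0.38, HFA 5.31 ± 0.97, SD) and -0.43 for *Mybpc2* over *Mybpc1* (CFA 2.22 ± 0.45, HFA 1.79 ± 0.17, exact p = 0.0952, adjusted p = 0.762). The adjusted p of all pairs except *Mybpc2* over *Mybpc1* was 0.992. For *Myh4* over *Myh7* and *Mylpf* over *Myl2* the ratio in HFA1, where the slow gene had 0 reads, depends on the prior count and is no measured value.

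Within the adult myosin heavy chains the mix of fast types was not the same in all libraries. *Myh4* made up 90.2%, 94.9%, 93.8%, 92.0% and 92.2% of the reads on *Myh4*, *Myh1*, *Myh2* and *Myh7* in CFA1 to CFA5 and 90.2%, 87.2%, 88.1%, 91.6% and 84.9% in HFA1 to HFA5. *Myh1* made up 6.57%, 3.07%, 3.85%, 5.28% and 5.64% in CFA1 to CFA5 and 7.66%, 10.5%, 9.29%, 6.37% and 10.3% in HFA1 to HFA5. HFA4 was the only HFA library below a CFA library, CFA1, and the widest 95% Wilson interval was 9.38% to 11.4% in HFA5. The mean *Myh1* share was 4.88% ± 1.41 for CFA and 8.83% ± 1.78 for HFA (SD, n = 5 each), a difference of 3.95 percentage points (two-sided exact permutation p = 0.0159, adjusted over the 4 myosins p = 0.0317). The *Myh4* share was 92.6% ± 1.79 for CFA and 88.4% ± 2.59 for HFA (exact p = 0.0159, adjusted p = 0.0317), which is largely the complement. The *Myh2* share was 2.47% ± 0.450 and 2.76% ± 1.09 (exact p = 0.770, adjusted p = 0.841). The *Myh7* share was 0.0226% ± 0.0431 and 0.0298% ± 0.0372 (exact p = 0.841, adjusted p = 0.841). The difference in *Myh1* share lay between 3.49 and 4.56 percentage points with each library left out in turn, but the adjusted exact p was then 0.0635 in 8 of the 10 cases and 0.0317 only without CFA1 or HFA4. Among libraries with second title digit 2, CFA spanned 3.07% to 6.57% (n = 2) and HFA 7.66% to 10.5% (n = 3), and among those with digit 3, CFA spanned 3.85% to 5.64% (n = 3) and HFA 6.37% to 10.3% (n = 2). This comparison was chosen after the values had been seen, 8.11% of the exon bases of *Myh1* overlap the antisense gene *Myhas*, and reads shared between the myosins were not counted.

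**Figure D3:**
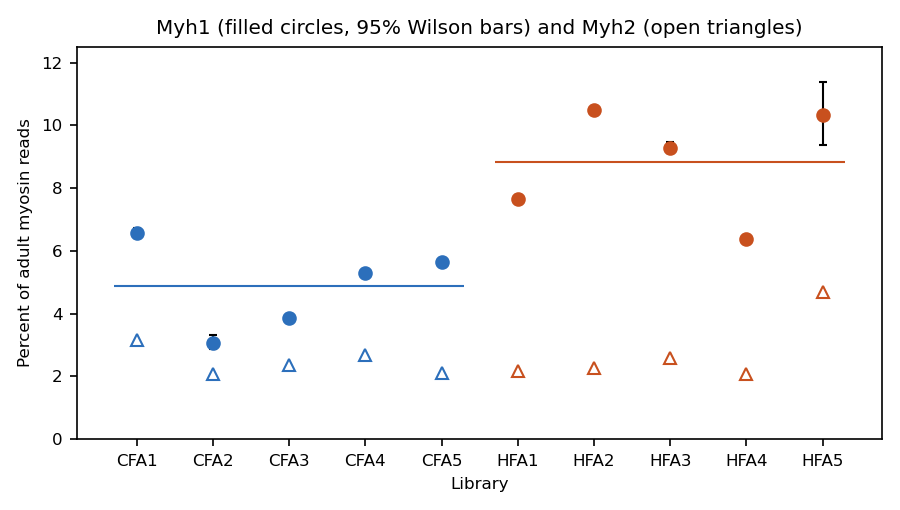
Share of adult myosin reads (Myh4, Myh1, Myh2 and Myh7 together, in percent) taken by Myh1 (filled circles with 95% Wilson intervals) and by Myh2 (open triangles) in each library, CFA in blue and HFA in orange, with horizontal lines at the group mean of Myh1. The Myh1 means are 4.88% for CFA and 8.83% for HFA, and CFA1 at 6.57% lies just above HFA4 at 6.37%.

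For the diet comparison across all genes (edgeR quasi-likelihood test with Benjamini-Hochberg adjustment, 15610 genes), 0 of 33 tested muscle genes passed the adjusted threshold of 0.05, and 0% of all genes did. None of the 33 had an unadjusted p below 0.05, against 7.36% (1149) of all genes. No muscle gene was called by another tool either, while DESeq2 called 60 genes in all (0.384%), the likelihood ratio test of edgeR 33 (0.211%), voom 0 (0%, limma) and voom with quality weights 1037 (6.64%). All 33 log2 fold changes (HFA minus CFA) were above 0, as were 60% of those of all genes, with a median of 0.69 against 0.064 over all genes. They ran from 0.11 ± 0.34 (SE) for *Tpm3* to 1.34 ± 0.88 for *Myh1*, with adjusted p from 0.744 to 0.947. The fast genes *Myh4*, *Atp2a1* and *Tnnt3* were at 0.61 ± 0.88, 0.83 ± 0.88 and 0.68 ± 0.80, *Acta1* was at 0.80 ± 0.85 and *Mybpc1* at 1.04 ± 0.81 (adjusted p = 0.781, edgeR). By limma voom 27 of the 33 were above 0, against 51.8% of all genes, with a median of 0.18. The 6 genes under the filter (*Myh7*, *Myl2*, *Myl3*, *Tnnc1*, *Tnnc2* and *Tnni1*) gave log2 fold changes of -0.41 to 1.01 when no filter was used, with adjusted p of at least 0.732 (edgeR).

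The diet values depended on HFA5. Without it, 0 of 35 tested muscle genes and 6 of 15735 genes (0.0381%) were called, but 20 muscle genes were higher and 1 lower at an unadjusted p below 0.05, against 10.8% of all genes higher and 25.8% in either direction. The median log2 fold change of the muscle genes was then 0.96, and that of all genes was -0.046. Only CFA2 and CFA5 then had high B cell and T cell markers, so lymphoid RNA lay on the CFA side alone. The median was -5.84 for the B cell markers, with 3 of 3 tested lower at an unadjusted p below 0.05 (edgeR). It was -4.00 for the T cell markers, with 6 of 6 lower. The part of lymphoid RNA in the muscle values of this fit was not tested. The values without HFA5 were 1.62 ± 0.53 for *Myh1* (adjusted p = 0.118, edgeR), 1.35 ± 0.45 for *Actn2*, 1.08 ± 0.47 for *Acta1* and 0.88 ± 0.46 for *Myh4* (SE). *Tpm3* was at -0.41 ± 0.17. With any other single library left out, no muscle gene had an unadjusted p below 0.05 (edgeR). With quality weights, which give less weight to libraries that depart from the fit, limma voom put 28 of the 33 at an unadjusted p below 0.05, all higher (15.9% of all genes were), with a median of 1.22 and a smallest adjusted p of 0.0574. HFA1 to HFA4 lay above all 5 CFA libraries for 20 of the 33 muscle genes, against 5.64% (880) of all genes. This count leaves out HFA5, the lowest library for 31 of the 33. The muscle genes varied nearly as one, so they are not independent measures of a diet difference. In none of the 33 did all 5 HFA libraries lie above or below all CFA libraries.

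**Figure D4:**
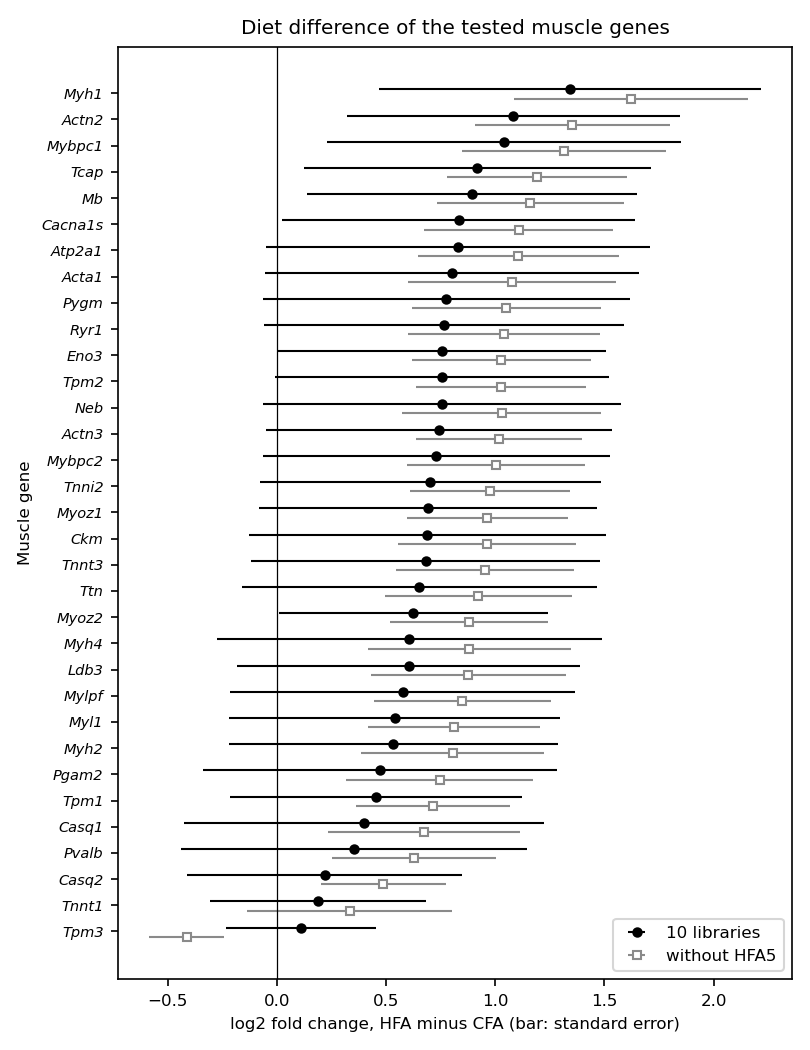
Log2 fold change of HFA over CFA for the 33 tested muscle genes in the edgeR quasi-likelihood fit, with all 10 libraries (black circles) and without HFA5 (grey squares), bars showing the standard error. The 33 values with 10 libraries run from 0.11 (Tpm3) to 1.34 (Myh1), and without HFA5 Tpm3 lies at -0.41.

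The diet comparison was also made within each second title digit. Among the 5 libraries with digit 2, 16 of 38 tested muscle genes were called, all of them higher in HFA, against 5.01% of all genes called higher and 9.12% called in all (edgeR). These were *Actn3*, *Cacna1s*, *Casq1*, *Ckm*, *Eno3*, *Ldb3*, *Mybpc2*, *Myl1*, *Mylpf*, *Myoz1*, *Pgam2*, *Pygm*, *Ryr1*, *Tcap*, *Tnni2* and *Tnnt3*, with the lowest adjusted p at 0.0372, and the median of all 38 was 1.78. The CFA side of this comparison consists of CFA1 and CFA2, of which CFA2 was the second lowest library of all. Among the 5 libraries with digit 3, which include HFA5, 0 muscle genes were called, 30 of 34 had a log2 fold change below 0, against 47.8% of all genes, and the median was -0.22. The difference between the digits was not tested.

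Other genes of skeletal muscle, listed by function, mostly had the same sign in the diet comparison, where 60% of all genes were above 0, and 0 of them were called (edgeR, 10 libraries). In the sarcomere and Z disc list 25 of 25 tested genes were above 0 (median 0.75), among them *Cmya5* (0.82 ± 0.79) and desmin, *Des* (0.82 ± 0.68). In the list of the triad, where calcium release is coupled to the membrane signal, 20 of 20 were above 0 (median 0.63), with triadin, *Trdn*, at 0.67 ± 0.78, *Srl* at 0.69 ± 0.72 and *Tmem38a* at 0.67 ± 0.75. Of the genes of muscle energy supply 17 of 17 were above 0 (median 0.69), with 2 genes under 0.05 before adjustment, *Cox7a1* (1.00 ± 0.42) and *Cox8b* (1.15 ± 0.39), both also made in brown fat. The most abundant genes of this list were the glycolytic *Aldoa* and *Ldha* and the glycerol phosphate enzyme gene *Gpd1*, which are made in many tissues and ranged from 0.30 to 0.55. The dystrophin complex, which ties the fibre to its surroundings, had 10 of 10 above 0 (median 0.61), with dystrophin, *Dmd*, at 0.82 ± 0.60, *Sgcb* at 0.24 ± 0.28 and *Sspn* at 0.24 ± 0.34. All 6 atrophy-linked ubiquitin ligases were above 0 (median 0.56), with *Trim63* at 0.97 ± 0.78, *Fbxo32* at 0.44 ± 0.45 and *Fbxo40* at 0.57 ± 0.76. None of these lists except that of energy supply had a gene at an unadjusted p below 0.05. Without HFA5 the numbers at an unadjusted p below 0.05 were 18 of 25, 12 of 20, 11 of 17, 9 of 10 and 4 of 6 in these lists, all higher, against 10.8% of all genes higher at that threshold. In that fit only CFA libraries had high lymphoid markers, whose part in these numbers was not tested.

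Genes of muscle regulation and innervation mostly had the same sign. Of 12 tested myogenic regulators 12 were above 0 (median 0.53), and *Mef2d* (0.53 ± 0.19) and *Mef2a* (0.33 ± 0.14), which act in many tissues, had an unadjusted p below 0.05. *Mef2c* was at 0.62 ± 0.30 and *Smyd1*, a myosin-folding methyltransferase, at 0.47 ± 0.76. *Mstn*, the growth inhibitor myostatin, was at 1.97 CPM in HFA5 and at 74.0 to 361 CPM in the others. Of 8 tested genes of the neuromuscular junction 7 were above 0 (median 0.66), with the receptor gene *Chrnb1* at 0.29 ± 0.28, *Rapsn* at 0.65 ± 0.52 and *Lrp4* at -0.0053 ± 0.44. The 3 tested satellite cell markers were *Sdc4* (-0.17 ± 0.21), *Vcam1* (-0.088 ± 0.57, highest in HFA5) and *Chodl* (0.32 ± 0.76), with a median of -0.088. *Pax7*, under the filter, was lowest in HFA5 (0.064 CPM) and highest in HFA2 (1.81 CPM), and was at 0.94 ± 0.48 without HFA5. *Myf5* and *Calcr*, also under the filter, reached 0.996 CPM (HFA1) and 0.434 CPM (CFA4). The developmental sarcomere genes (mainly *Actc1*, *Myl4* and *Myh8*) summed to 4.20 CPM in HFA5 and 7.13 to 52.3 CPM elsewhere. Of the Schwann cell genes given here, *Mbp*, a myelin gene, was at 0.77 ± 0.17 with an unadjusted p below 0.05, and *Sox10*, a transcription factor of these cells, was at -0.95 ± 0.46.

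Markers of other cell types moved with the muscle genes in part. The 9 brown fat markers, led by *Ucp1* and *Cidea*, summed to 74.8 CPM in CFA1 and to 1510.0, 1904 and 1519 CPM in HFA3, HFA4 and HFA5, so that brown fat RNA was high in HFA5, where the muscle genes were lowest. The 6 T cell markers, led by *Lck*, *Trbc2* and *Cd2*, summed to 754 CPM in HFA5, 326 in CFA5 and 144 in CFA2 and to 7.09 to 14 CPM in the other 7. The 6 white adipocyte markers, led by *Fabp4*, *Cfd* and *Adipoq*, varied least, from 10412 CPM (HFA5) to 19039 CPM (HFA4), the 7 luminal epithelial markers, led by *Krt19*, *Krt18* and *Krt8*, ran from 297 CPM (HFA5) to 1992 CPM (CFA2), and the 5 fibroblast markers, led by *Col1a2*, *Dcn* and *Col1a1*, from 495 CPM (HFA5) to 3679 CPM (CFA3). The median log2 fold change was 1.49 for brown fat, -0.71 for smooth muscle and myoepithelium, -0.58 for luminal epithelium, -0.71 for fibroblasts and 0.12 for white adipocytes, with 0 genes called in each (edgeR). At an unadjusted p below 0.05 were *Elovl3* (2.31 ± 0.99), *Ppargc1a* (1.05 ± 0.42) and *Cox8b* of brown fat, *Tagln* (-1.01 ± 0.40) of smooth muscle, whose leading genes were *Acta2* and *Oxtr*, and *Wfdc18* (-2.14 ± 0.50) and *Epcam* (-0.96 ± 0.41) of luminal epithelium. The part of these cell types in the differences of the muscle genes was not tested.

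**Figure D5:**
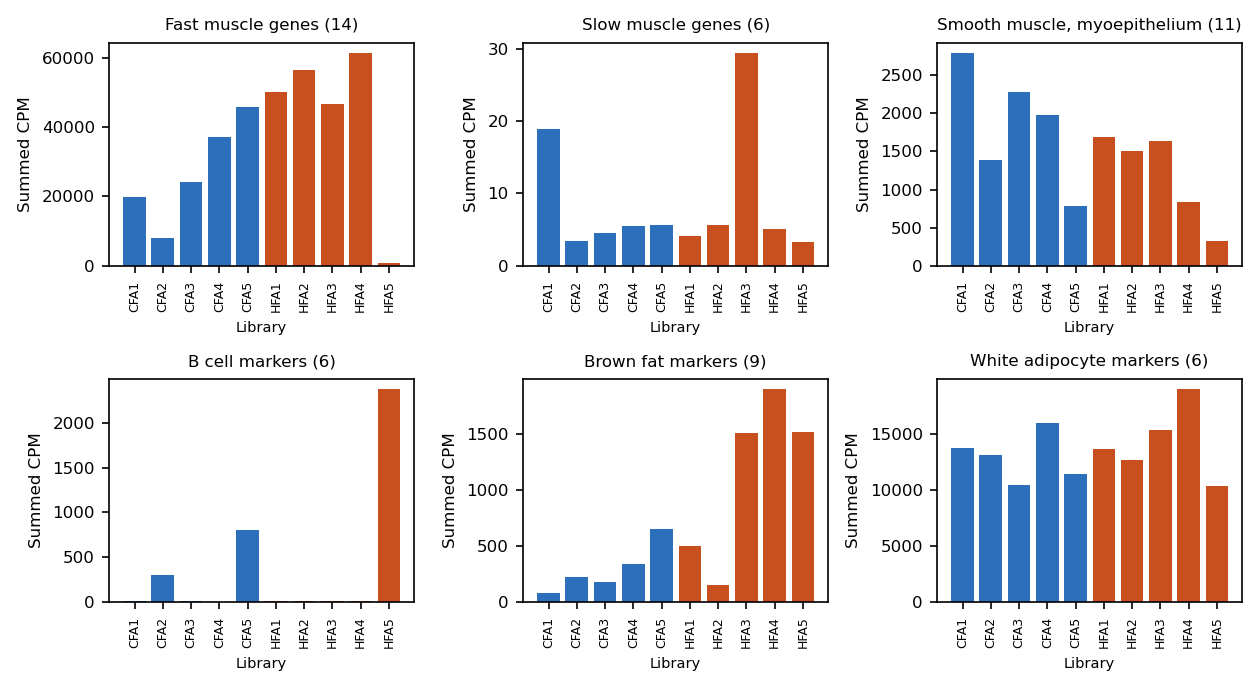
Summed CPM in each library (CFA in blue, HFA in orange; each panel has its own axis from 0) of 14 fast muscle genes, 6 slow muscle genes without Casq2 and Myoz2, and 4 sets of cell type markers. The fast genes lie at 767 CPM in HFA5 against 8010.3 to 61284 CPM elsewhere, the slow genes are high in CFA1 and HFA3, and the B cell markers are high in HFA5, CFA5 and CFA2.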

How the data were processed

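RNA-seq of 10 mammary libraries (5 CFA, 5 HFA) was analysed. The authors extracted RNA with mirVana, prepared TruSeq RNA v2 libraries, aligned 75 bp paired reads to GRCm38 with TopHat2 2.0.14 and Bowtie2 2.2.5 and counted them on Ensembl genes with HTSeq 0.6.1. The deposited values are raw read counts for 46983 genes and 5 summary lines, which were left out of library sizes. The authors' model also had a cage term, which the labels do not give.

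Symbols and positions came from GENCODE M21 (46488 genes matched). CPM used TMM factors (0.822 to 1.19). The 39 genes and all lists were chosen with earlier results of these data known. Diets were compared with edgeR 4.0.16 in R 4.3.3 (filterByExpr, quasi-likelihood test, Benjamini-Hochberg, threshold 0.05), without covariates. The SE of a log2 fold change was derived as its absolute value divided by the square root of the quasi-likelihood F statistic. Genes given in every library are the 16 of the 8 pairs, *Acta1*, *Ckm*, *Atp2a1*, *Pvalb*, *Tpm1*, *Tpm2*, *Tpm3*, *Ttn*, *Mb* and those called in any fit, with *Myh1* and *Myh2* added after their values were seen. Ratios and shares used exact permutation tests (scipy 1.17.1). Alternatives were other scalings, filters, tests (limma 3.58.1, DESeq2 1.42.0), a block, a title-digit term and libraries left out. The promoters came from RefSeq (GRCm38.p6). Results for some genes of the lists are not reported here.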

Additional observations from a re-analysis of the deposited data

Results flagged for a closer look

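For 25 muscle genes, the highest or lowest library of each diet group was set against the other 4, as its gap to the nearest library divided by the range of the group. The ratio exceeded the critical value of 0.71 in 19 of 50 groups. A chance rate of about 1 in 20 holds for independent groups of normally distributed values. The 25 genes were measured in the same 10 mice and mostly varied together, so the count of 19 cannot be set against that rate. HFA5 lay far below the other HFA libraries for *Atp2a1* (0.855), *Acta1* (0.840), *Ckm* (0.771), *Tnni2* (0.765), *Mybpc1* (0.738), *Mybpc2* (0.724), *Tnnt3* (0.723), *Mylpf* (0.716), *Myoz1* (0.716) and *Tpm2* (0.715). HFA5 lay far above them for *Tpm3* (0.883), the tropomyosin gene that most cells use. HFA3 lay far above the other HFA libraries for the slow genes *Tnnc1* (0.925), *Myl2* (0.863), *Tnni1* (0.860), *Tnnt1* (0.718) and *Myh7* (0.713). CFA1 lay far above the other CFA libraries for *Myh7* (0.937), *Myl2* (0.844) and *Tnnc1* (0.747). In HFA3 and CFA1 the fast paralogs of these genes were not the highest of their groups. The causes of these departures were not tested.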

How the results depend on the processing

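The 0 calls among the muscle genes held under every alternative except the comparison within second title digit 2 (16 genes). Over all genes the 0 calls became 33 with the likelihood ratio test, 60 with DESeq2, 1037 with limma voom and quality weights, 6 without HFA5 (0 to 6 with each library left out) and 1418 within digit 2. The median log2 fold change of the muscle genes ran from 0.43 to 0.96 when single libraries were left out and was -0.22 within digit 3, where *Acta1* (-0.24), *Myh4* (-0.35), *Myh1* (-0.0063) and *Tnnt1* (-0.48) were also below 0. *Tpm3* was below 0 by limma voom (-0.062), with quality weights (-0.21), with the block (-0.039), without CFA3 (-0.0072), without HFA5 (-0.41, and up to 0.24 without HFA4) and within digit 2 (-0.31), and *Tnnt1* by limma voom (-0.22), with quality weights (-0.021) and without HFA3 (-0.45). With the replicate block by the last 3 title digits 0 muscle genes were called and the median was 0.79. Whether these digits pair the mice is not given in the sources used here. Deviations of libraries with the same last 3 digits correlated over genes with r of 0.30 (CFA1 and HFA2), -0.29 (CFA2 and HFA3), 0.11 (CFA3 and HFA4) and 0.41 (CFA5 and HFA5). CFA and HFA libraries with unlike digits spanned -0.72 (CFA4 and HFA5) to 0.60 (CFA2 and HFA5), so these values cannot decide whether the digits pair the mice. Pair differences turned to 0.92 (*Mylpf*), 0.67 (*Tnni2*) and 0.44 (*Casq1*) as medians and to 0.026 (*Casq1*) with a prior count of 0.5, where r for *Mylpf* and *Myl2* was -0.032. With each library left out they ranged from -1.20 to 0.68 (*Myh4*), -1.05 to 0.96 (*Mylpf*), -0.46 to 1.06 (*Tnnt3*), -0.48 to 1.02 (*Tnni2*), -1.15 to 0.051 (*Tnnc2*, which has too few reads to be read), -0.26 to 0.36 (*Casq1*), -0.50 to 0.096 (*Myoz1*) and -0.59 to -0.31 (*Mybpc2*). The *Myh1* share difference ranged from 3.49 to 4.56 points. By the longest transcript *Tnnt1* was at 2.50 CPM per kilobase. Depth limits the 6 slow genes, with 0 to 97 reads a library. The causes of these changes were not tested.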

Other observations

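The pattern of the slow genes was shared with few others. Of 16687 genes, 172 had CFA1 and HFA3 as their 2 highest libraries. Ranked by the gap between these 2 libraries and the other 8 on the log2 scale, the first were *Myl2* (2.11), *Myh7* (1.5), *Sox14* (1.25), *Dmkn* (1.23), *Tnnc1* (1.14), *Tnni1* (1.09), *Nat8f2* (0.99) and *Myl3* (0.73), so that 5 of the first 8 were slow muscle genes of the list. *Sox14*, a transcription factor gene, was measured at 3.09 CPM in CFA1 and 3.69 CPM in HFA3 and at 0.0636 to 1.21 CPM in the others. This ranking was made after the values had been seen, and its 2 libraries were taken from these same slow genes. The high places of the slow genes are therefore no separate evidence of a shared pattern. The ranking also rests on few reads per gene.

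*Krt33a*, a hair keratin gene, was at 8.37 CPM in HFA3, at 0.0687 CPM in CFA1 and at 0 in the other 8 libraries.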
